A study of Mus musculus with 102 samples.

Results

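A set of 10 genes encoding scavenger and lipoprotein uptake receptors was followed in sorted microglia of the mouse lumbar cord: Msr1, Cd36, Scarb1, Scarb2, Marco, Olr1, Cd68, Stab1, Cxcl16 and Lrp1. They were found by symbol among the 18856 genes of the authors' normalized table and matched by gene identifier to the raw counts. The normalized table lists 9 of the 10, and Marco was read from the 53715 genes of the raw table. The question behind the study is how cholesterol handling in spinal microglia relates to neuropathic pain after chemotherapy.

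Wild type (WT) mice and ABC-imKO (KO) mice were compared. KO animals carry loxP-flanked Abca1 and Abcg1 and Cx3cr1-CreERT2, an inducible Cre recombinase under control of a gene active in microglia and other myeloid cells, and the WT animals are labelled only as WT. In each genotype the naive mice had no treatment. The others received cisplatin, a platinum drug that causes peripheral neuropathy, by intraperitoneal injection on days 1 and 3. On day 7 these mice were injected intrathecally with saline (cisplatin saline) or with AIBP, the apolipoprotein A-I binding protein (cisplatin AIBP). A comparison of saline with naive therefore holds cisplatin and the intrathecal injection together. Age, sex and the induction of Cre are not given in the labels. Nor do they tell single mice from pools, so a p-value here speaks only of the spread between numbered samples. There were 17 numbered samples: 3 in each of 5 groups, and 2 (numbers 7 and 9) in WT cisplatin AIBP. Values are CPM, counts scaled by the TMM-adjusted library size, each summed over 3 technical libraries and 2 lanes. The samples held 45.1 to 76.6 M counts (M for mega).

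Scavenger receptors are cell surface and endosomal proteins that bind modified lipoproteins, anionic phospholipids, dying cells and other polyanionic ligands and carry them into the endosome and lysosome. Class A receptors such as MSR1 and MARCO have collagen-like stalks, and class B receptors such as CD36 and SR-B1 (the product of Scarb1) span the membrane at both ends. LRP1, a giant member of the LDL receptor family, takes up apolipoprotein E-rich particles and many protease complexes. Cholesterol that enters by these routes leaves through exporters such as ABCA1 and ABCG1, the products of the floxed genes.

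The labels were checked first. Abca1 and Abcg1 were still counted in KO samples, at 32.6 to 105 CPM for Abca1 and 25.6 to 68.4 CPM for Abcg1, and neither passed between KO and WT naive in the edgeR fit. Abcg1 held 41.6, 66.4 and 56.0 CPM in the KO naive samples against 160, 91.7 and 107 CPM in the WT naive ones, without overlap (log2 fold change -1.13 ± 0.32, unadjusted p = 0.0034, edgeR adjusted p = 0.789). Abca1 overlapped between them (-0.30 ± 0.28, adjusted p = 0.947). Counts over a whole gene include reads outside a floxed segment, so they do not check its removal. Cx3cr1, which carries the Cre in the KO label, stood at 9349 to 10656 CPM in WT naive, 3397 to 4871 in KO naive and 1718 to 2771 in KO cisplatin saline. In the samples labelled KO cisplatin AIBP it stood at 5250 to 7078 CPM, above every other KO sample, overlapping WT cisplatin saline (5531 to 7103) and below WT cisplatin AIBP (7297 and 7902). Apoe, the apolipoprotein E gene, was likewise at 1007 to 1541 CPM in the samples labelled KO cisplatin AIBP, against 3421 to 4693 in KO naive and 862 to 1898 in all WT samples. These 3 samples go against the other KO samples in both genes, and every value for them below is for samples under that label. The 12 microglia markers, Tmem119 and P2ry12 among them, summed to 53860 to 61539 CPM in WT naive, 30244 to 38519 in WT cisplatin saline and 42930 to 45197 in WT cisplatin AIBP. In KO they summed to 42515 to 55105 CPM in naive, 21250 to 24967 in cisplatin saline and 27057 to 35646 under the label KO cisplatin AIBP. Of the 12, 4 fell in WT cisplatin saline (P2ry13, P2ry12, Gpr34 and Tmem119), 10 in KO cisplatin saline (Olfml3, Tmem119, Gpr34 and Slc2a5 with the smallest p) and 7 under the label KO cisplatin AIBP (each against naive of the same genotype). Over all genes 2.91%, 4.41% and 2.68% were called in these comparisons, in that order. The microglia marker sum was thus lower in each treated group than in naive of the same genotype. All calls of Msr1, Cd36 and Scarb2 given below are also against naive, and the part of the marker level in them was not tested. Cd36 was not called in KO cisplatin saline. Sample 4 there, with a marker sum of 24339 CPM, stayed within the KO naive range of Cd36. Samples 5 and 6, with sums of 21250 and 24967 CPM, lay above that range. The 10 endothelial markers summed to 19.8 to 54.6 CPM in naive samples, with Pecam1 at 15.7 to 38.9 CPM, and to 2.0 to 17.5 CPM in treated samples. Tek was at 0 in every sample, and Cldn5 was at 7.69 CPM in WT naive 2 and at most 0.21 CPM elsewhere. Oligodendrocyte markers (8 genes) summed to 468 to 935 CPM in naive and 227 to 628 CPM in treated samples. Astrocyte markers (8 genes) summed to 266 to 441 and 143 to 314 CPM, and B cell markers (6 genes) to 787 to 1548 and 292 to 1021 CPM. Of the B cell markers, Ms4a1 was at 0 in every sample. The neutrophil, neuron, T and NK cell, and pericyte and fibroblast lists each summed to at most 22.9 CPM in any sample. A marker sum alone does not show that its cells were present, and the part of other cell types in the member values was not tested. Of the 10 border macrophage markers, Lyve1 was at 0 in every sample, but others were counted. Their sum reached 214 CPM in WT cisplatin saline 5, 209 CPM in saline 6 and 130 CPM in sample 8 labelled KO cisplatin AIBP.

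All calls among the members in the edgeR fit fell in the comparisons with naive samples. In the edgeR quasi-likelihood test (Benjamini-Hochberg over 20461 genes, threshold 0.05), 2 of the 9 tested genes passed in WT cisplatin saline against WT naive, both higher, where 2.91% of all genes passed. In KO cisplatin saline against KO naive 2 passed, 1 higher and 1 lower, beside a background of 4.41%. Only 1 passed in WT cisplatin AIBP against WT naive (background 1.25%), and 2 when samples labelled KO cisplatin AIBP were set against KO naive (background 2.68%). The saline and AIBP comparisons of a genotype share their naive samples. The median log2 fold change of the 9 genes was 0.25, 0.01, 0.31 and -0.37 in these comparisons, beside -0.01, -0.04, -0.07 and -0.07 over all genes. Msr1 and Cd36 passed upward, Scarb2 passed downward, and the other 6 tested genes did not pass in any of the 11 comparisons. The samples hold many cells each, so fewer cells with a transcript and less of it per cell cannot be told apart.

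**Figure D1:**
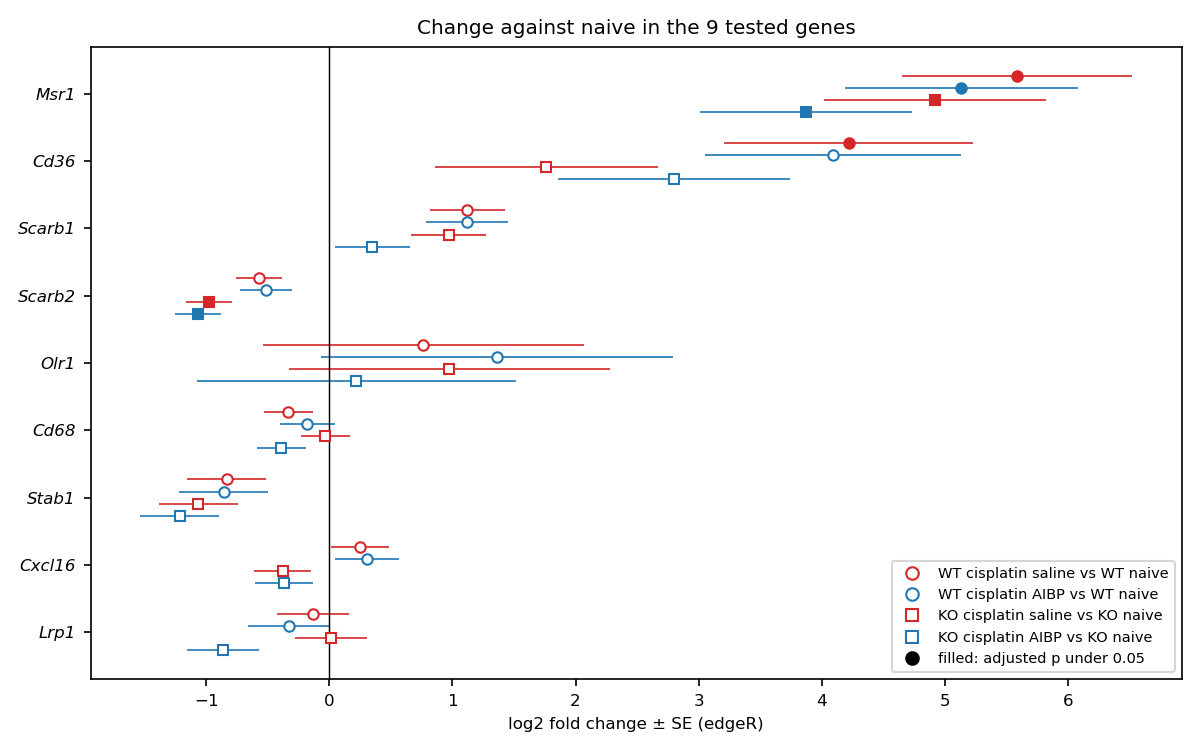
Log2 fold changes ± SE (x axis, edgeR) of the 9 tested genes (y axis) in the 4 comparisons with naive samples. Filled symbols mark an adjusted p under 0.05. Msr1 lies far to the right in all 4, Cd36 is filled once, Scarb2 is filled to the left in both KO comparisons, and no other gene is filled.

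Msr1 encodes the class A macrophage scavenger receptor, which binds acetylated and oxidized LDL. It lies on the minus strand of chromosome 8 (GRCm38, 39581685 to 39642673, ENSMUSG00000025044). WT naive samples 1, 2 and 3 held 3.80, 1.48 and 2.09 CPM. After cisplatin and saline, WT samples 4, 5 and 6 reached 21.4, 206 and 126 CPM. After cisplatin and AIBP, WT samples 7 and 9 reached 93.0 and 78.9 CPM. All 5 treated WT samples lay above all 3 naive samples, with saline 4 the lowest of the treated by far. KO naive samples 1, 2 and 3 held 1.08, 14.5 and 11.2 CPM. KO cisplatin saline samples 4, 5 and 6 held 303, 339 and 171 CPM, and samples 7, 8 and 9 labelled KO cisplatin AIBP held 64.7, 149 and 178 CPM. The KO groups too did not overlap with their naive samples, and KO cisplatin saline 4 and 5 were the highest of the whole series.

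Msr1 rose by a log2 fold change of 5.59 ± 0.94 (SE) in WT cisplatin saline (3 against 3 samples; edgeR adjusted p = 0.0067) and of 4.92 ± 0.90 in KO cisplatin saline (3 against 3; adjusted p = 0.00649). The same comparison for AIBP gave 5.13 ± 0.95 in WT (2 against 3; edgeR adjusted p = 0.0191) and 3.87 ± 0.86 for samples labelled KO cisplatin AIBP (3 against 3; adjusted p = 0.0272). Of these 4 calls, that in KO cisplatin saline remained when any 1 sample was left out, with log2 fold changes between 4.40 and 5.69 over its alternatives and adjusted p up to 0.0338. In WT cisplatin saline it also remained without any single sample, but not without samples 5 and 6 together, where the value was 3.18 and the adjusted p 0.368 with saline 4 as the only sample left in its group; it was also lost with limma-voom (adjusted p = 0.162) and with only the compared groups (0.0549). In WT cisplatin AIBP the call was lost on leaving out any of the 5 samples (edgeR adjusted p 0.07 without naive 1, 0.0872 without naive 2, 0.0709 without naive 3, 0.114 without AIBP 7 and 0.0758 without AIBP 9) and with limma-voom (0.222). In the samples labelled KO cisplatin AIBP it was lost without naive 1, 2 or 3 (adjusted p 0.0594, 0.0737 and 0.0687) without samples 8 or 9 (0.0909 and 0.0756), with limma-voom (0.0879) and with only the compared groups (0.0809). Direction was the same in every one of these fits.

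**Figure D2:**
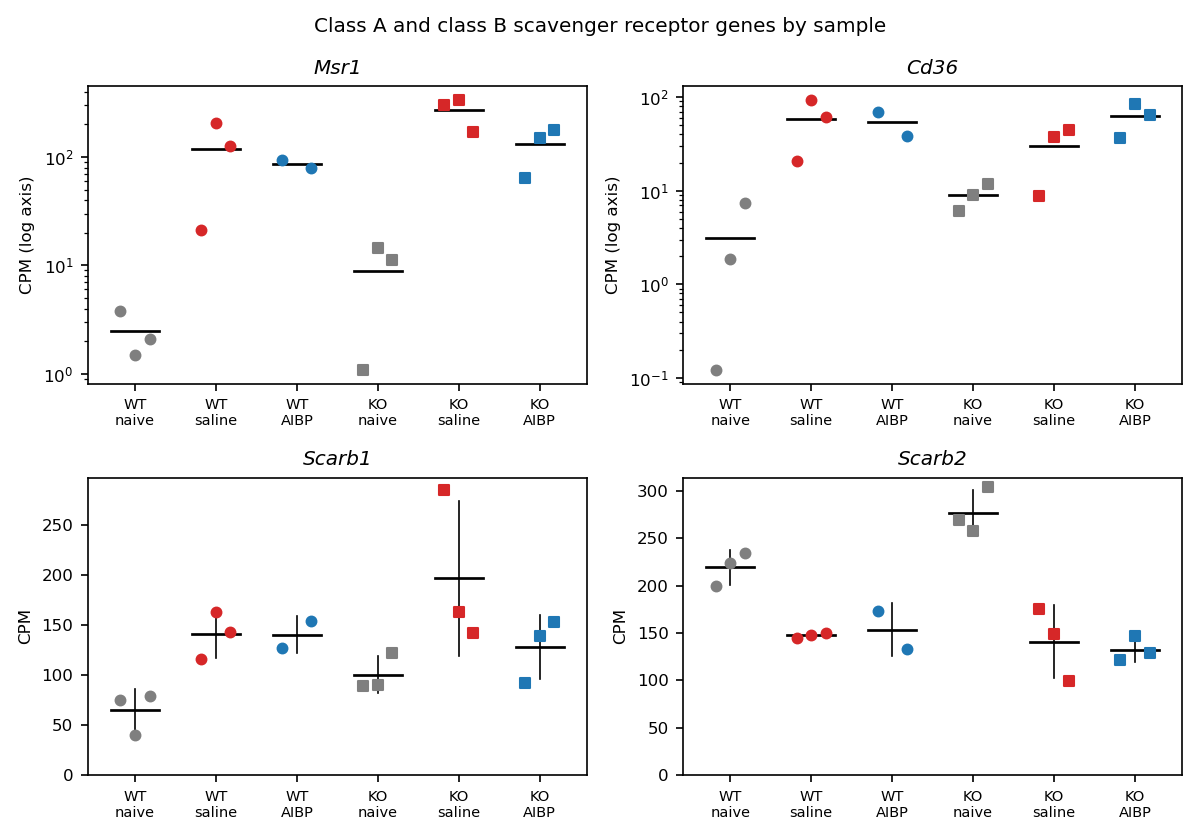
CPM of Msr1, Cd36, Scarb1 and Scarb2 (y axes, logarithmic for Msr1 and Cd36) in the 6 groups (x axis); each point is a numbered sample, horizontal lines are group means and vertical lines in the lower panels are SD. Msr1 spans 1.08 to 339 CPM and Cd36 0.12 to 94.5 CPM, whereas Scarb2 stays between 98.9 and 304 CPM.

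Monocytes and macrophages outside the parenchyma are known to express Msr1 and Cd36 too, so the markers of those cells are given here. The 10 monocyte markers summed to 5.5 to 75.7 CPM in WT naive, 248 to 1101 in WT cisplatin saline and 201 to 291 in WT cisplatin AIBP. In KO the sums were 22.3 to 35.4 CPM in naive, 777 to 1259 in cisplatin saline and 287 to 813 in the samples labelled KO cisplatin AIBP. Most of each sum in treated samples was Fn1, the fibronectin gene, at 168 to 1088 CPM. Ccr2, the chemokine receptor of inflammatory monocytes, was at 95.3 CPM (WT cisplatin saline 5) and 62.8 CPM (saline 6), and at no more than 10.2 CPM in any other sample. Of the border macrophage markers, Clec4n rose in WT cisplatin saline, from at most 0.18 CPM to 0.076 CPM in sample 4, 58.3 in sample 5 and 102 in sample 6 (edgeR adjusted p = 0.0368). The border macrophage markers summed to 214 and 209 CPM in the same 2 samples, to 130 CPM in sample 8 labelled KO cisplatin AIBP, and to no more than 37.2 CPM elsewhere. In KO cisplatin saline, with the highest Msr1, Ccr2 was at 0.2 to 6.7 CPM, against 0.3 to 2.0 CPM in KO naive. Chil3, a marker of monocytes and other macrophages, stood there at 76.9 to 116 CPM against at most 4.9 CPM. WT cisplatin saline 4 held Ccr2 at 0.3 CPM, Fn1 at 236 CPM and a monocyte marker sum of 248 CPM, beside 21.4 CPM of Msr1. The part of monocyte or macrophage RNA in the Msr1 and Cd36 values was not tested.

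**Figure D3:**
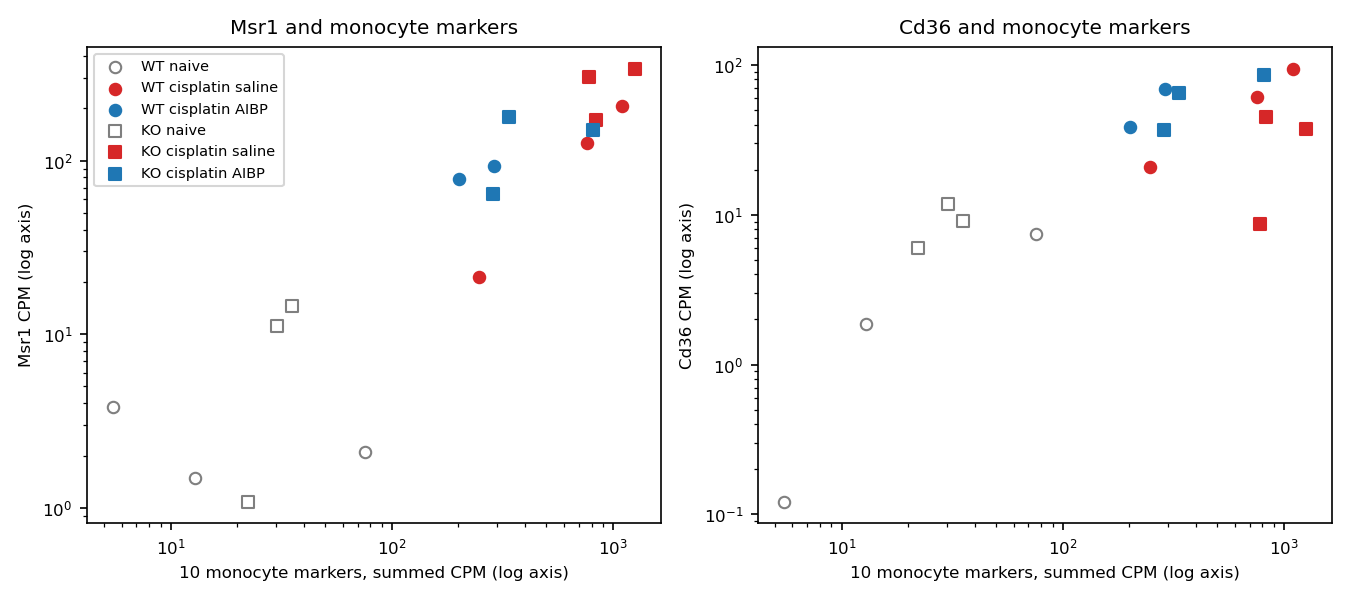
Msr1 (left) and Cd36 (right) CPM on the y axis against the summed CPM of 10 monocyte markers on the x axis, both logarithmic; each point is a numbered sample, circles WT and squares KO. Marker sums reach 75.7 CPM in naive samples and begin at 201 CPM in treated samples. For Msr1 all treated samples lie above all naive ones, whereas Cd36 in KO cisplatin saline 4 (8.70 CPM) lies within the KO naive range.

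MARCO, the other class A receptor of the set, is known from macrophages of the spleen and lung. Marco (chromosome 1, 120474538 to 120505024) had no count in 16 of the 17 samples, and in 50 of the 51 libraries. All of its 205 counts came from technical library 3 of WT cisplatin AIBP 7, where they amounted to 10.5 CPM, while the other 2 libraries of that sample held 0. It did not pass the filter on low counts and was not tested.

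CD36, a class B receptor, takes up oxidized LDL and long-chain fatty acids and signals with Toll-like receptors. Its gene spans 17781690 to 17888801 on the minus strand of chromosome 5 (ENSMUSG00000002944). WT naive samples 1, 2 and 3 held 0.12, 1.87 and 7.44 CPM, and WT cisplatin saline samples 4, 5 and 6 held 20.8, 94.5 and 61.0 CPM. WT cisplatin AIBP 7 and 9 held 69.3 and 38.6 CPM. No treated WT sample overlapped with the naive ones. KO naive samples 1, 2 and 3 held 6.02, 9.03 and 11.8 CPM, and KO cisplatin saline 4, 5 and 6 held 8.70, 37.5 and 44.97 CPM, so that KO saline 4 lay within the naive range. Samples 7, 8 and 9 labelled KO cisplatin AIBP held 36.6, 85.2 and 65.2 CPM, all above KO naive. Cd36 rose in WT cisplatin saline (log2 fold change 4.22 ± 1.01, 3 against 3 samples; edgeR adjusted p = 0.037) and did not pass in KO cisplatin saline (1.76 ± 0.91, adjusted p = 0.323), in WT cisplatin AIBP (4.09 ± 1.04, adjusted p = 0.0767) or in the samples labelled KO cisplatin AIBP (2.80 ± 0.94, adjusted p = 0.151). The difference between the KO and WT changes after cisplatin and saline was itself not called (-2.46 ± 1.27, edgeR adjusted p = 0.694). The WT call was lost without naive 1 (adjusted p = 0.063), naive 2 (0.141), saline 5 (0.138) or saline 6 (0.086), and without saline 5 and 6 together, where the log2 fold change was 2.77 (edgeR adjusted p = 0.699). It was also lost with limma-voom (0.123), with only the compared groups (0.134), and without technical replicate 1 (0.0719) or 2 (0.129) of every sample. DESeq2 called Cd36 in both WT comparisons and for samples labelled KO cisplatin AIBP (adjusted p 0.000438, 0.00445 and 0.0393).

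The technical libraries of a sample differed most for Cd36 among the called genes. Library values here are counts scaled by the library's own total. In KO naive 1 the 3 libraries held 0, 16.1 and 4.04 CPM, and in KO cisplatin saline 4 they held 0.054, 13.7 and 9.26 CPM. The 3 libraries of KO cisplatin saline 6 ranged from 19.5 to 109 CPM. On the scale log2(CPM + 1), the median SD between the libraries of a sample was 0.74 for Cd36, 0.34 for Msr1 and 0.22 for Scarb2. The median SD between the samples of a group was 0.85, 0.65 and 0.13, also as log2(CPM + 1). Sample values sum 3 libraries and are TMM-scaled, so the SDs of libraries and of samples are of unlike units. The SD of single libraries was near that of summed samples for Cd36 and larger for Scarb2, which does not measure the part of library spread in a sample value.

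**Figure D4:**
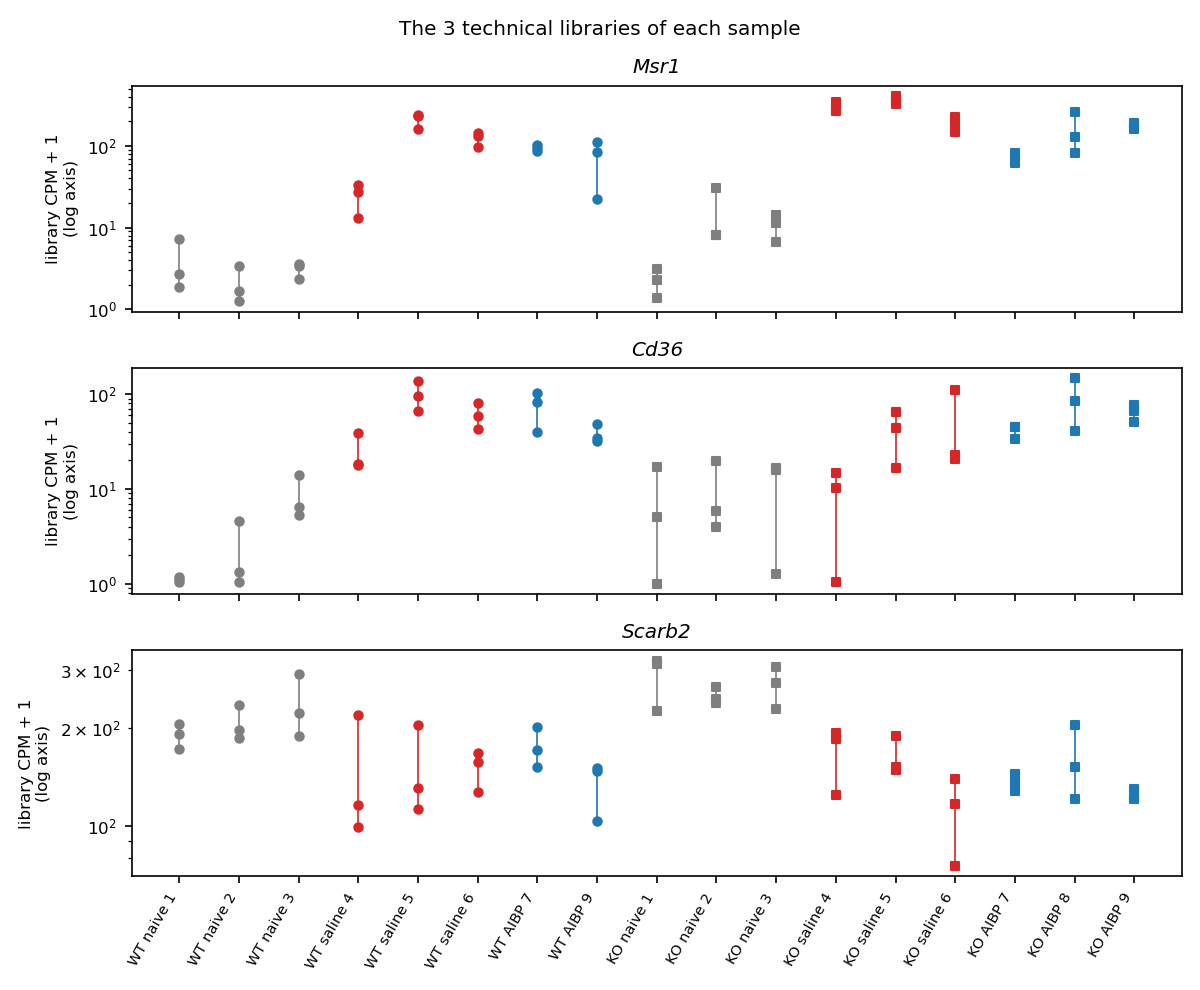
Library CPM + 1 (y axis, logarithmic) of Msr1, Cd36 and Scarb2 in the 3 technical libraries of each numbered sample (x axis); grey is naive, red cisplatin saline and blue cisplatin AIBP. The libraries of KO naive 1 and KO cisplatin saline 4 spread from near 0 to 16.1 and 13.7 CPM for Cd36, whereas within a genotype every Msr1 library of a treated sample lies above every naive one.

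SR-B1, the product of Scarb1, is the HDL receptor and exchanges cholesteryl esters and free cholesterol with HDL. Scarb1 lies at 125277087 to 125341094 on chromosome 5. WT naive samples held 75.5, 40.03 and 79.0 CPM, WT saline samples 116, 164 and 144 CPM, and WT AIBP samples 127 and 154 CPM. All treated WT samples were above all WT naive samples. KO naive samples held 89.6, 90.1 and 122 CPM and KO saline samples 286, 163 and 142 CPM. The samples labelled KO cisplatin AIBP, at 91.9, 139 and 153 CPM, overlapped with KO naive. Its log2 fold change against naive was 1.12 ± 0.31 in WT cisplatin saline and 0.97 ± 0.30 in KO cisplatin saline, and both missed the threshold (edgeR adjusted p = 0.0651 and 0.0948). DESeq2 called both (adjusted p = 0.00468 and 0.0202).

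LIMP-2, the product of Scarb2, is a class B family member of the lysosome membrane that carries beta-glucocerebrosidase there, and it is the member that passed downward. Scarb2 (ENSMUSG00000029426) spans 92441314 to 92506833 on the minus strand of chromosome 5. KO naive samples held 269, 257 and 304 CPM, KO saline samples 175, 149 and 98.9 CPM, and the samples labelled KO cisplatin AIBP 121, 147 and 128 CPM. No treated KO sample overlapped with KO naive. The WT values were 199, 224 and 235 CPM for naive, 145, 148 and 150 for saline, and 174 and 134 for AIBP, again without overlap with naive. Scarb2 fell by 0.98 ± 0.19 on the log2 scale in KO cisplatin saline (edgeR adjusted p = 0.00837) and by 1.07 ± 0.19 for samples labelled KO cisplatin AIBP (adjusted p = 0.00798). In WT the values were -0.57 ± 0.19 for saline and -0.51 ± 0.21 for AIBP and did not pass (edgeR adjusted p = 0.128 and 0.284). The difference between the KO and WT changes after cisplatin and saline was -0.40 ± 0.26 and was not called (edgeR adjusted p = 0.788). Both KO calls remained without any single sample and were lost without technical replicate 1 of every sample, at -0.82 (edgeR adjusted p = 0.0733) and -0.93 (0.0582). With only the compared groups the adjusted p were 0.0671 and 0.0613.

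Immediate early and dissociation genes, which respond to handling of the cells, also varied. Their 14 genes summed to 7249, 26527 and 35695 CPM in KO naive, 7640, 3298 and 13149 CPM in KO cisplatin saline, and 15367 to 32216 CPM in the samples labelled KO cisplatin AIBP. In WT the sums were 19277 to 47694 CPM in naive, 9281 to 28166 CPM in cisplatin saline, and 8181 and 8130 CPM in cisplatin AIBP. Of the 14, Hspa1b, Hspa1a and Fosb fell in KO cisplatin saline (edgeR adjusted p = 0.00291, 0.0162 and 0.0286). The part of handling in the Scarb2, Msr1 and Cd36 values was not tested.

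The bases before the RefSeq start are shown for the 2 called members that have an entry in the RefSeq promoter table (GRCm38.p6), since they went in opposite directions. Both lie on the minus strand, each run is 250 bases long and ends at the base before the start, and capitals mark the motifs searched. The Cd36 window is chr5:17835897-17836146, and the Scarb2 window is chr5:92505658-92505907. Both RefSeq starts lie inside the longer GENCODE genes. The Scarb2 window is covered there by a retained-intron transcript and the Cd36 window by no exon.
Cd36: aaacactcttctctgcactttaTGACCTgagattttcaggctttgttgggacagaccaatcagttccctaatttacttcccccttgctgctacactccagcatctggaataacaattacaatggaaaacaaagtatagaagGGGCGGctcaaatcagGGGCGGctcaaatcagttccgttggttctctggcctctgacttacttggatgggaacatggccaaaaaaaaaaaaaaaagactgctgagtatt
Scarb2: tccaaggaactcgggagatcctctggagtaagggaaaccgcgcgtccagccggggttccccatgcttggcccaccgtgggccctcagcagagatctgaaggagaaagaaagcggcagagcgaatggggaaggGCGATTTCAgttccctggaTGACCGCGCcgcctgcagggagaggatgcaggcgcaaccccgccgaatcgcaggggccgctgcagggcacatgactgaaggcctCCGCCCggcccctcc
The 6 motifs, searched on both strands, were the PU.1 site GAGGAAGT, the AP-1 site TGANTCA, the TFEB E-box TCACGTGA, the NRF2 site TGANNNNGC, the nuclear receptor half-site AGGTCA and the SP1 GC box GGGCGG. In 32851 promoter windows of the same length they were held by 2.44%, 6.75%, 0.785%, 35.2%, 14.02% and 32.7%. Cd36 held the nuclear receptor half-site once, beginning 228 bases before the start, and the GC box 2 times, at 109 and 93 bases. Scarb2 held 2 NRF2 matches, at 118 and 99 bases, and 1 GC box at 15 bases. G and C made up 43.2% of the Cd36 window and 65.6% of the Scarb2 window. The other 4 sequences searched in the Cd36 window, and the other 4 in the Scarb2 window, were not found there. Among the other members with an entry, Cd68 held the AP-1 letters 2 times, one of them overlapping an NRF2 match, and Olr1 held them once.

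LOX-1, the product of Olr1, is the lectin-like receptor of oxidized LDL best known from endothelium. Olr1 (chromosome 6, 129485244 to 129507165) was near the limit of detection, between 0 CPM in WT naive 1 and 6.93 CPM in WT cisplatin AIBP 9, with no counts in 12 of the 51 libraries. Its groups overlapped throughout, and its largest difference from naive, 1.36 ± 1.43 on the log2 scale in WT cisplatin AIBP, did not pass (edgeR adjusted p = 0.701).

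CD68, or macrosialin, is a heavily glycosylated protein of late endosomes and lysosomes and was the most abundant member. Cd68 (chromosome 11, 69664213 to 69666153) had a mean of 1899 ± 209 CPM (SD, n = 3) in WT naive, 1508 ± 49.2 (n = 3) in WT cisplatin saline and 1678 ± 34.5 (n = 2) in WT cisplatin AIBP. In KO the means were 1569 ± 248 CPM in naive, 1533 ± 450 in cisplatin saline and 1196 ± 254 under the label KO cisplatin AIBP (n = 3 each). Over all 17 samples Cd68 ranged from 1046 to 2035 CPM, a ratio of 1.95, the narrowest of the 8 members counted in every sample. No comparison of Cd68 passed. The lowest unadjusted p was 0.0417, between the AIBP groups of KO and WT (log2 fold change -0.49 ± 0.22, edgeR adjusted p = 0.732).

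Stabilin-1, the product of Stab1, clears SPARC, acetylated LDL and other ligands in tissue macrophages and sinusoidal endothelium. Stab1 lies at 31139013 to 31168641 on chromosome 14 and shares 112 exon bases with Nt5dc2 on the other strand; the strand setting of the counting is not given in the sources used here. KO naive samples held 348, 336 and 184 CPM, KO saline samples 142, 138 and 135 CPM, and the samples labelled KO cisplatin AIBP 144, 147 and 81.4 CPM. KO naive 3 was the lowest of its group but above every treated KO sample. The WT values were 161, 284 and 193 CPM for naive, 176, 88.6 and 93.0 for saline, and 113 and 121 for AIBP, with saline 4 inside the naive range. Its log2 fold changes were all below 0, at -0.84 ± 0.32 and -0.86 ± 0.36 in WT saline and AIBP, and -1.06 ± 0.32 and -1.22 ± 0.32 in KO. None passed the edgeR test (adjusted p = 0.197, 0.30, 0.0799 and 0.0594). DESeq2 called both KO comparisons (adjusted p = 0.0113 and 0.00407).

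CXCL16 is a transmembrane chemokine that also binds phosphatidylserine and oxidized LDL. Cxcl16 (chromosome 11, 70453983 to 70459984) shares 552 exon bases with Zmynd15 on the other strand, so its counts may hold reads of that gene. Over all samples it ranged from 66.2 to 146 CPM. Its group means were 105 ± 33.7, 125 ± 18.3 and 130 ± 13.6 CPM in WT naive, saline and AIBP (n = 3, 3 and 2), and 127 ± 16.7, 97.8 ± 17.3 and 98.5 ± 14.97 CPM in KO (n = 3 each). The log2 fold changes against naive were above 0 in WT (0.25 ± 0.23 and 0.31 ± 0.26) and below 0 in KO (-0.38 ± 0.23 and -0.37 ± 0.23). None passed, and the difference between the KO and WT changes after cisplatin and saline did not pass either (-0.63 ± 0.33, unadjusted p = 0.076, edgeR adjusted p = 0.697).

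Lrp1 (chromosome 10, 127538161 to 127621148), the only LDL receptor family member of the set, held 353, 377 and 407 CPM among the WT naive samples and 501, 477 and 451 CPM among the KO naive ones. In cisplatin saline it stood at 491, 293 and 252 CPM in WT and 668, 310 and 464 CPM in KO, wide groups that enclosed their naive samples. WT cisplatin AIBP held 281 and 323 CPM, and the samples labelled KO cisplatin AIBP held 331, 284 and 170 CPM, all below KO naive. The log2 difference between the samples labelled KO cisplatin AIBP and KO cisplatin saline was -0.88 ± 0.29, with an unadjusted p of 0.0097 and an edgeR adjusted p of 0.706. Against KO naive it was -0.86 ± 0.29 (adjusted p = 0.156).

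**Figure D5:**
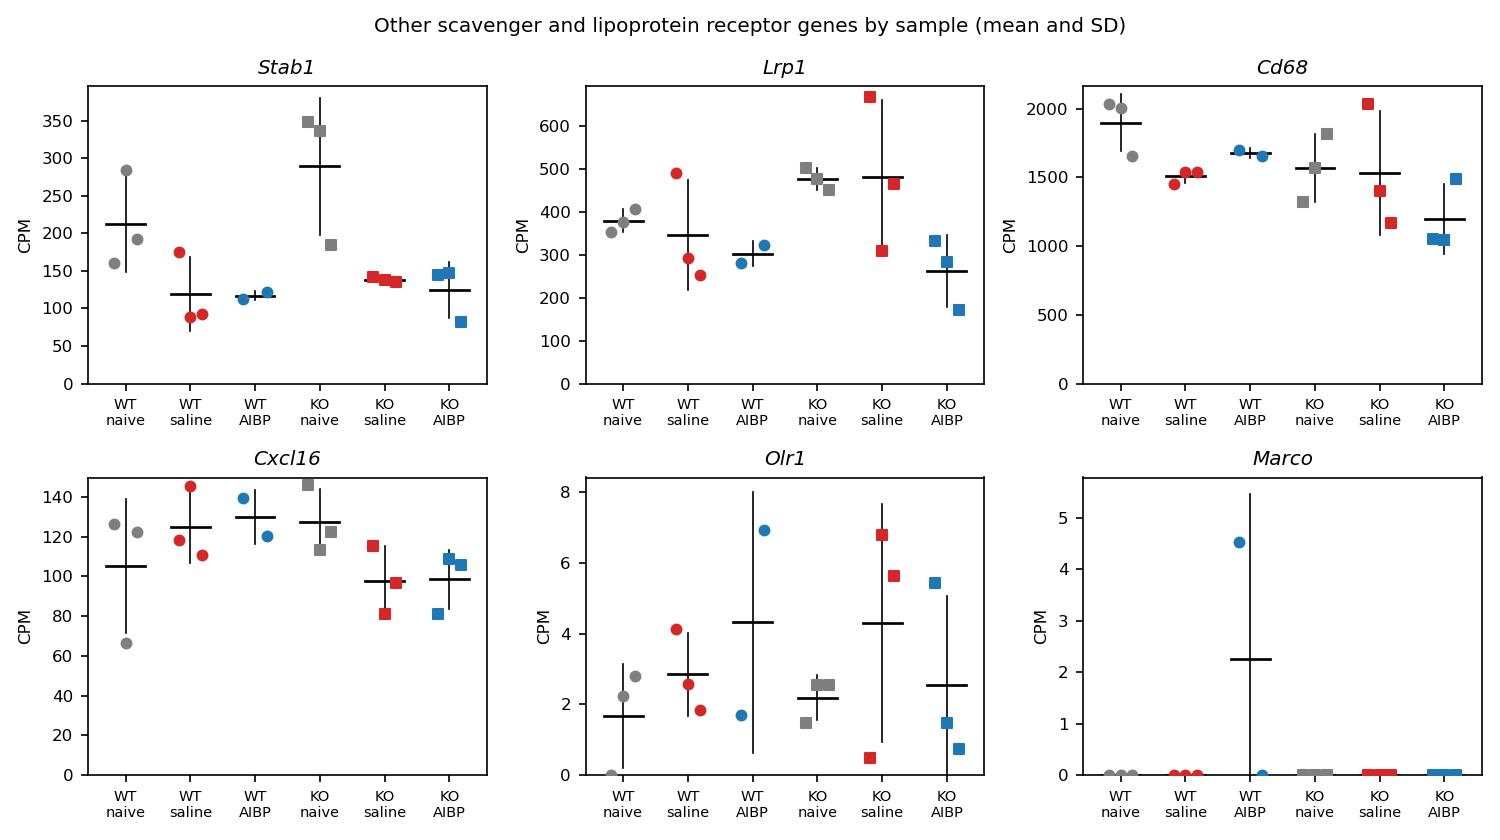
CPM (y axes, linear from 0) of Stab1, Lrp1, Cd68, Cxcl16, Olr1 and Marco in the 6 groups (x axis); points are numbered samples, horizontal lines means and vertical lines SD. Stab1 is highest in KO naive (184 to 348 CPM), Cd68 stays between 1046 and 2035 CPM, and Marco is at 0 in 16 of 17 samples.

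Levels were compared between genes only per kilobase of exon. On that scale Cd68 was first in all 6 groups, at 951 to 1511 CPM per kilobase of mean level. In WT naive Scarb2 (34.9 ± 2.92 CPM per kilobase) and Cxcl16 (34.8 ± 11.2) followed without a difference beyond their spread, then Lrp1 (21.4 ± 1.52) and Stab1 (20.7 ± 6.25), also within their spread. Scarb1 was at 7.63 ± 2.54 CPM per kilobase, and Cd36 (0.88 ± 1.06), Olr1 (0.47 ± 0.41) and Msr1 (0.39 ± 0.19) were the lowest detected. In KO naive the order of means was Scarb2 (44.05 ± 3.87), Cxcl16 (42.1 ± 5.53), Stab1 (28.1 ± 8.88), Lrp1 (26.9 ± 1.41), Scarb1 (11.8 ± 2.16), Cd36 (2.49 ± 0.81), Msr1 (1.41 ± 1.10) and Olr1 (0.61 ± 0.18) CPM per kilobase. Neighbours in it lay within their spread for Scarb2 and Cxcl16, for Stab1 and Lrp1, and for Cd36, Msr1 and Olr1. After cisplatin the level of Msr1 reached 18.6 ± 14.6 CPM per kilobase in WT saline and 42.7 ± 13.9 in KO saline. Only the mean of Cd68 was above it in KO saline, with Cxcl16 (32.4 ± 5.74) and Lrp1 (27.1 ± 10.1) within the spread. Cd36 reached 16.4 ± 10.3 CPM per kilobase in WT saline and 8.47 ± 5.34 in KO saline.

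Between AIBP and saline after cisplatin no member passed in either genotype, and the background was as low: 0% of all genes in WT and 0.00977% in KO, where the 2 genes called were Apoe and Cx3cr1. At an unadjusted p under 0.05 there were 0 members among 759 genes in WT and 1 member, Lrp1, among 1354 genes in KO. DESeq2 called 104 and 187 genes, 0 of them members. In WT the median of the 9 log2 fold changes was -0.01. In the samples labelled KO cisplatin AIBP the median was -0.36 against 0 over all genes, with 7 of 9 values below 0. Msr1 was at -0.45 ± 0.86 in WT and -1.05 ± 0.77 in KO, and Cd36 at -0.12 ± 0.99 and 1.04 ± 0.89. With SE of that size, changes of this order in Msr1 and Cd36 could not be detected.

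No member passed between the genotypes either, in naive samples (background 0.00489%), in cisplatin saline (0.044%) or in cisplatin AIBP (0%). At an unadjusted p under 0.05 there were 1, 0 and 1 members among 1220, 1837 and 1299 genes. DESeq2 called 166, 405 and 195 genes, 0 of them members. In naive samples 8 of the 9 log2 fold changes of KO against WT were above 0, with a median of 0.38 beside 0 over all genes. The smallest unadjusted p was that of Msr1 (1.87 ± 0.81, p = 0.0363, edgeR adjusted p = 0.789), at 1.08 to 14.5 CPM in KO naive against 1.48 to 3.80 in WT naive, groups that overlapped. In cisplatin saline Msr1 was at 1.20 ± 0.77 and Cd36 at -0.95 ± 0.89. The 2 interactions, which ask whether the genotypes differ in the change after cisplatin and saline or after AIBP, called 0 members and 0% of all genes with edgeR, and DESeq2 called 185 and 132 genes, 0 of them members. At an unadjusted p under 0.05, 1561 and 1285 genes lay in these interactions, none of them a member.

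The genes whose log2 CPM followed that of a called member most closely over the 17 samples were taken from 8919 expressed genes. For Msr1 they were the ribosomal protein genes Mrps22 (Pearson r = 0.97), Rps6 (0.97) and Mrpl52 (0.96). For Cd36 they were Hspe1 (0.94), a mitochondrial chaperonin gene, and the DNA replication genes Mcm2 (0.94) and Rpa2 (0.94). For Scarb2 they were the interferon receptor gene Ifnar2 (0.92), the class I gene H2-D1 (0.91) and the immune checkpoint gene Lag3 (0.90). These values describe samples that share treatment and library preparation, and Rps6 and H2-D1 have near-identical copies with which their reads could be shared. Among the members themselves r was 0.84 for Msr1 with Scarb1, 0.73 for Msr1 with Cd36, 0.71 for Scarb2 with Stab1, and -0.78 and -0.74 for Msr1 with Stab1 and Scarb2.

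Other genes of the same routes were read from lists. Of 7 further class A and cysteine-rich scavenger receptors only Cd5l was abundant enough to test, and it did not pass. Of 21 tested other scavenger and engulfment receptors, Trem2, a lipid-sensing receptor of microglia, was lower in WT cisplatin saline (1070 ± 278 CPM against 2025 ± 188; log2 fold change -0.92 ± 0.21, edgeR adjusted p = 0.0283). In KO cisplatin saline Trem2 (-1.12 ± 0.21) and the integrin gene Itgb5 (-1.16 ± 0.28) fell and Cd300lf, a phosphatidylserine receptor, rose (5.40 ± 0.92). Thus 3 of 21 passed, where 4.41% of all genes passed. In the samples labelled KO cisplatin AIBP, Trem2 (-1.08 ± 0.21) and the inhibitory receptor gene Cd200r1 (-1.34 ± 0.32) were lower than in KO naive. Cd300lf rose from 2.65 to 10.3 CPM in KO naive to 106 to 492 CPM. Of 18 LDL receptor family and sorting genes, the adaptor Dab2 rose in WT saline (3.36 ± 0.59) and in KO saline (2.37 ± 0.57), and Mylip, the ligase that degrades LDL receptors, fell in KO saline (-0.93 ± 0.20). Mylip was also called lower in the samples labelled KO cisplatin AIBP than in KO naive. The LDL receptor family genes themselves did not pass in these comparisons. The list medians were 0.01 and -0.06 for engulfment receptors and -0.07 and -0.32 for LDL receptor genes in WT and KO saline.

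Among 11 tested lipoprotein ligands and lipases, Lpl, the lipoprotein lipase gene, rose in WT cisplatin saline (118 to 504 CPM against 47.6 to 84.2; 2.23 ± 0.45, edgeR adjusted p = 0.0176). Lpl was also called higher in WT cisplatin AIBP than in WT naive. In KO cisplatin saline Apoe rose (8111 to 21278 CPM against 3421 to 4693; 1.68 ± 0.30, adjusted p = 0.00602). For the samples labelled KO cisplatin AIBP, Apoe was called lower than in KO naive. Of 22 endosomal cholesterol and lipid genes, the tetraspanin gene Cd63 rose in all 4 comparisons with naive, by 1.43 ± 0.22 and 1.79 ± 0.22 in WT and KO saline and 1.21 ± 0.24 and 1.03 ± 0.22 in WT and KO AIBP. The cholesterol transfer gene Stard3 fell in both saline comparisons (-0.73 ± 0.17 and -0.80 ± 0.17), and the cholesteryl ester hydrolase gene Nceh1 rose in KO saline (1.14 ± 0.30). In the samples labelled KO cisplatin AIBP, Npc1 (-1.35 ± 0.32) and Lamp2 (-0.87 ± 0.19) were lower than in KO naive. Both genes, like Scarb2, encode proteins of the lysosome membrane. With Cd63 higher, the other 19 of the 22 genes did not pass there, where 2.68% of all genes were called. Of the 5 cholesterol export genes edgeR called 0 in both saline comparisons, with 2 and 0 at an unadjusted p under 0.05.

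Of 17 tested signalling partners, the tetraspanin gene Cd9, whose product associates with CD36 and class A receptors, fell in WT saline (-0.89 ± 0.21, edgeR adjusted p = 0.0373) and KO saline (-0.89 ± 0.21, adjusted p = 0.0282). Sparc, which encodes a ligand of stabilin-1, fell in KO saline (1299 to 1944 CPM against 3972 to 4226; -1.41 ± 0.24). Cd9 and Sparc were also called lower in the samples labelled KO cisplatin AIBP than in KO naive. Of 21 tested regulators of scavenger receptor genes, Nfe2l2, which encodes NRF2, passed in KO saline at -0.80 ± 0.12 (edgeR adjusted p = 0.00251) and in both AIBP comparisons (-0.62 ± 0.14 in WT and -0.63 ± 0.12 in KO). The list median was -0.69 in KO saline, beside -0.04 over all genes.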

How the data were processed

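RNA of 17 numbered samples was measured as 51 libraries in 102 runs. Per the submitters' processing notes, the tools were STAR 2.6.0a, DESeq2, bcl2fastq, MultiQC 1.7 and FastQC 0.11.17 and the build was GRCm38; counting tool and strand setting are not given in the sources used here. Raw counts were deposited by the authors and used for every test. Their deposited normalized table holds a signal, the raw count over 1 size factor per run (factors 0.437 to 1.62, relative tolerance 1e-09), used to find the genes and for 1 alternative. Here the 6 runs of a sample were summed. Gene names, positions and exon lengths came from GENCODE M21 (GRCm38). Tests used edgeR 4.0.16 in R 4.3.3, two-sided: filterByExpr (20461 genes), TMM, the quasi-likelihood F test with 1 mean per group in all 17 samples (residual degrees of freedom 11), and Benjamini-Hochberg adjustment at 0.05, in 11 comparisons. The test was checked on simulated data. Log2 CPM for likeness used a prior count of 2. All 10 members are described; of the other lists, genes that passed are named where a result turns on them (at most the 4 smallest p of a list), and other cell types are given by marker sums, and for each called member the 3 genes with the highest r among those at 10 CPM or more in 1 group. The members, lists and alternatives were chosen with earlier results of these data known. Alternatives were DESeq2 1.42.0, limma-voom (limma 3.58.1), size factors, filters, fewer groups, each sample or technical replicate left out, and replicate blocks. The 6 motifs were searched in 7 members' RefSeq promoter windows.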

Additional observations from a re-analysis of the deposited data

Results flagged for a closer look

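Marco, left out of every comparison by the filter on low counts, had 205 counts in WT cisplatin AIBP 7 and 0 in each of the 6 naive samples. All 205 were in technical library 3 of that sample.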

How the results depend on the processing

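The count of called members changed with the test more than its direction did: of the 113 fold changes computed for the 7 called gene and comparison pairs under an alternative, 84 remained called, 29 missed the threshold and 0 reversed. The calls over all genes moved with these settings too: in KO saline against naive, 903 of 20461 genes in the fit reported became 2196 of 20461 with DESeq2, 2464 of 20461 with the library block, 1443 of 9774 with the stricter filter and 584 of 15999 with only the compared groups. In WT saline against naive, 595 became 1783, 1970, 1027 and 69 of 15593 under the same settings, 672 with limma-voom and 7 of 22891 without saline 5 and 6. In WT AIBP against naive, 256 became 1365 with DESeq2, 1154 with the library block and 658 with the stricter filter, with 204 under limma-voom and 324 of 34991 without a filter. They fell to 43 of 20359, 68 of 20343 and 138 of 20254 genes without naive 1, 2 or 3. For the samples labelled KO cisplatin AIBP against KO naive, 549 became 1721, 1970 and 998 in that order, with 61 of 15972 in only the compared groups. In WT cisplatin saline against naive, 2 members were called, 0 with limma-voom, with only the compared groups or without saline 5 and 6, and 5 in the 51 libraries with a replicate block. In KO saline against naive, 2 were called, 4 with DESeq2, the stricter filter or the library block, and 1 with only the compared groups. In WT AIBP against naive, 1 was called, 2 without a filter, 3 with DESeq2 or the stricter filter, 4 with the library block and 0 with limma-voom. In the samples labelled KO cisplatin AIBP against KO naive, 2 were called, 4 with the stricter filter, 5 with DESeq2 or the library block and 1 with only the compared groups. The library block also called 1 member, Msr1, between KO AIBP and KO saline (117 of 20461 genes called) and 1, Msr1, between KO and WT saline (306 of 20461). It treats technical libraries as units (within-sample correlation 0.0672). Leaving out 1 sample or technical replicate gave 1 to 3 called members in WT saline, 1 to 3 in KO saline, 0 to 2 in WT AIBP and 1 to 2 in KO AIBP. Samples of the same number in the 2 genotypes had correlations of deviations from their group means of -0.137 to 0.145. Deviations within groups of 2 or 3 samples are tied to each other, so these values cannot decide whether the samples were paired. The sample number as replicate block called 0 members between genotypes. The authors' normalized values moved none of the 7 ratios of group means by more than the replicate SD. Except for fits with fewer samples, the cause was not tested. Olr1 and Marco had no count in 12 and 50 of the 51 libraries; the 3 libraries of KO cisplatin saline 5 held 0, 548 and 3 counts of Olr1.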
